A study of Rattus norvegicus with 9 samples.

Results

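The genes described here encode the ubiquitin-conjugating enzymes and the ubiquitin-specific proteases of rat smooth muscle cells from the thoracic aorta. They were taken by symbol, as rows whose gene name starts with Ube2 or with Usp and a digit. Of 83 such rows, 32 with the prefix Ube2 and 51 with the prefix Usp, 66 had an FPKM of at least 1 in at least 3 of the 9 libraries, 28 Ube2 and 38 Usp genes, out of 8532 genes of the table that passed the same filter. FPKM is a count of fragments corrected for gene model length and library depth, so levels of different genes can be set side by side. The cells fell into 3 groups of 3 libraries. BSA cells, the controls, held an empty vector and were given bovine serum albumin. AGEs cells, also with empty vector, were given sugar-modified proteins known as advanced glycation end products (AGEs) at 200 µg/mL for 24 h. CTSD cells were transfected to overexpress cathepsin D, a lysosomal aspartic protease, and were given the same AGEs. All 3 groups were transfected, and none of them combined CTSD with BSA. The labels name neither the vector nor the cultures behind each library, and the spread that p-values rest on may therefore be technical.

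Ubiquitin is joined to proteins in a relay: an activating enzyme (E1) charges a conjugating enzyme (E2), which passes the ubiquitin on with the help of a ligase (E3). Most E2 genes carry the symbol Ube2, and the E2 helps to set which kind of ubiquitin chain is built, chains linked through lysine 48 being known as a signal for the proteasome and chains linked through lysine 63 for signalling, trafficking and DNA damage tolerance. The ubiquitin-specific proteases (Usp) form the largest family of deubiquitinases, cysteine proteases that remove ubiquitin or trim chains, and they act on substrates from histones to membrane receptors. A few Ube2 products carry a ubiquitin-like protein such as NEDD8 in place of ubiquitin, and the UEV proteins, such as Ube2v2, resemble an E2 but lack its active cysteine.

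The libraries held an estimated 4492445 to 5341678 assigned fragments, recovered from the FPKM values. Ctsd stood at 13.04 ± 1.45 FPKM (mean ± SD, n = 3) in BSA cells, 13.9 ± 0.808 in AGEs cells and 199 ± 3.88 in CTSD cells, so the overexpressed gene was high in the libraries labelled so (exact two-sided permutation p = 0.1 between the last 2 groups, the smallest that 3 against 3 libraries can give). Of 13 smooth muscle markers 7 passed the filter and 1, Myocd, was at 0 in all libraries. Their summed level was 184 to 204 FPKM in BSA, 162 to 165 in AGEs and 245 to 248 in CTSD libraries. The level came mainly from Tpm2, while Myh11, Des, Lmod1 and Synpo2 stayed under 1 FPKM. In BSA, AGEs and CTSD cells Acta2 had group means of 8.455, 8.251 and 22.82 FPKM, and Tagln of 12.05, 11.28 and 22.28. Cald1, at 20.99, 19.63 and 16.55 FPKM, and Cnn1, at 0.743, 0.569 and 0.356, were lowest in CTSD cells. Markers of endothelial cells (at most 0.136 FPKM summed) and epithelial or mesothelial cells (at most 0.237) were at or near 0. Those of fibroblasts summed to at most 2.57 and those of macrophages to at most 1.76, and 1 of each passed the filter. The fibroblast sum came mainly from Pdgfra, at 2.15, 2.01 and 2.36 FPKM in the BSA, AGEs and CTSD groups, above Myh11 and Cnn1. The third AGEs library stood apart from the other 2 for many long genes, which touches the Usp results and is given with them.

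The Ube2 genes were the more abundant family. Their mean level over the 9 libraries ranged from 2.46 FPKM (Ube2q2l) to 2215 (Ube2d3) with a median of 136, against a median of 13.3 over all tested genes, and 16 of 28 had at least 100 FPKM. Ube2d3, an E2 of broad use that works with many ligases, held 35.1% to 36.6% of the summed Ube2 level in BSA libraries, 33.3% to 33.98% in AGEs libraries and 28.0% to 28.7% in CTSD libraries. Ube2c, an E2 of the anaphase-promoting complex, stood at 375 FPKM. The Usp genes lay between 0.762 (Usp45) and 112 FPKM (Usp39) with a median of 12.2, and 3 of 38, Usp39, Usp7 and Usp14, had at least 100. Their gene models were also longer, with a median of 3717 bases against 1445 for Ube2 and 2061 for all tested genes. The fragments behind a gene followed from both: the sum over the 9 libraries had a median of 7302 for Ube2 and 2060 for Usp genes, and a minimum of 75 for Ube2t and 98 for Usp45, so the fold changes of these low genes are imprecise.

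In 17 rows with either prefix no test was made, 4 Ube2 and 13 Usp. Of these 13 were listed at 0 in every library: Ube2l6, Ube2ql1 and Ube2u, and Usp2, Usp18, Usp22, Usp26, Usp29, Usp43, Usp44, Usp50, Usp53 and Usp9y. A listing at 0 cannot be read as silence here, since genes that every cell uses are also at 0 in this table. The other 4, Ube2d4, Usp40, Usp51 and Usp6nl, had 24, 128, 83 and 61 fragments over all 9 libraries. Usp6nl, despite its symbol, encodes a GTPase-activating protein for Rab proteins and not a deubiquitinase. Some E2 genes go by locus names and so fall outside the rule, among them the row described as E2 B (LOC103694902), an E2 of DNA damage tolerance and close relative of Ube2a. It stood at 117 ± 9.28 FPKM in BSA, 118 ± 8.06 in AGEs and 91.4 ± 3.502 in CTSD cells and fell with CTSD (log2 fold change -0.36, adjusted p = 0.00299). Another such row, LOC100912618, stood at 37.3 ± 2.47, 41.5 ± 3.22 and 40.3 ± 4.67 FPKM. It gave no call (0.15, adjusted p = 0.326 with AGEs, and -0.04, adjusted p = 0.779 with CTSD).

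With AGEs, 8 of 28 Ube2 genes rose and 0 fell, while 2 of 38 Usp genes rose and 1 fell. Over all genes tested, 15.0% passed an adjusted p of 0.05 (limma, Benjamini-Hochberg), 6.05% higher and 8.92% lower, so the share of Ube2 genes called, 28.6%, was above that background and the share of Usp genes, 7.89%, below it in this fit. The Usp count did not stay below: it was 10 with voom on recovered fragments (1546 over all genes), 9 without AGEs replicate 3 (1605) and 6 with median-of-ratios scaling (1289). Blocked on replicate number, 1 Usp gene rose and 3 fell, and 8 Ube2 genes rose and 0 fell, with 474 higher and 739 lower over all genes. The labels do not say whether libraries of the same number are pairs. The changes were small: the 8 called Ube2 genes moved by a median of 0.24 log2 units. High genes were called more often in this fit. Of 1169 genes with a mean of at least 100 FPKM 21.7% were called higher, against 5 of 16 Ube2 genes (31.2%) in that range. Under 100 FPKM, 3.56% of all genes were called higher, against 3 of 12 Ube2 genes (25.0%). The median log2 fold change was 0.02 for Ube2, -0.14 for Usp and -0.06 for all tested genes. Median-of-ratios scaling turned the balance of calls over all genes from 516 higher and 761 lower to 769 higher and 520 lower, and gave 12 Ube2 genes higher and 0 lower. Leaving out AGEs replicate 1 or 2 gave 5 or 3 Ube2 calls, and leaving out BSA replicate 1, 2 or 3 gave 3, 4 or 4, while the count over all genes fell to between 760 and 837 in these 5 fits. The 3 AGEs libraries lay all above the 3 BSA libraries in 12 Ube2 and 5 Usp genes (12.8% of all genes) and all below in 1 and 7 (19.8%). At an unadjusted p under 0.05 there were 12 Ube2 and 16 Usp genes, against 2561 of all 8532 genes tested. As in any bulk RNA, fewer cells expressing a gene and less RNA per cell cannot be told apart.

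With CTSD under AGEs, 12 of 28 Ube2 genes passed, 3 higher and 9 lower, and 11 of 38 Usp genes, 5 higher and 6 lower. The background was 30.7% of all genes, 18.6% higher and 12.0% lower. The median log2 fold change was -0.11 for Ube2 and 0.00 for Usp genes, against 0.05 over all tested genes. The CTSD libraries lay all above the AGEs libraries in 7 Ube2 and 6 Usp genes (26.2% of all genes) and all below in 12 and 12 (17.7%). Of 16 Ube2 genes with at least 100 FPKM 6 were lower and 3 higher. All 3 Usp genes in that range, Usp39, Usp7 and Usp14, were lower, Usp39 at the edge of the threshold. Of all such genes 28.7% were lower and 30.2% higher. Under 100 FPKM, 3 of 12 Ube2 genes were lower and 0 higher, and 3 of 35 Usp genes were lower and 5 higher. Of all genes in that range 9.38% were lower and 16.8% higher. With median-of-ratios scaling the balance over all genes went from 1591 higher and 1026 lower to 1204 higher and 1296 lower, the Ube2 counts to 1 higher and 10 lower, and the Usp counts to 3 higher and 8 lower. The AGEs libraries serve both comparisons, so a rise in the first and a fall in the second are not independent of each other. Without CTSD replicate 2 or 3 or AGEs replicate 1 the Usp count was 7 in each fit. Over all genes the count fell from 2617 to 2154, 2095 and 2154 in these fits.

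**Figure D1:**
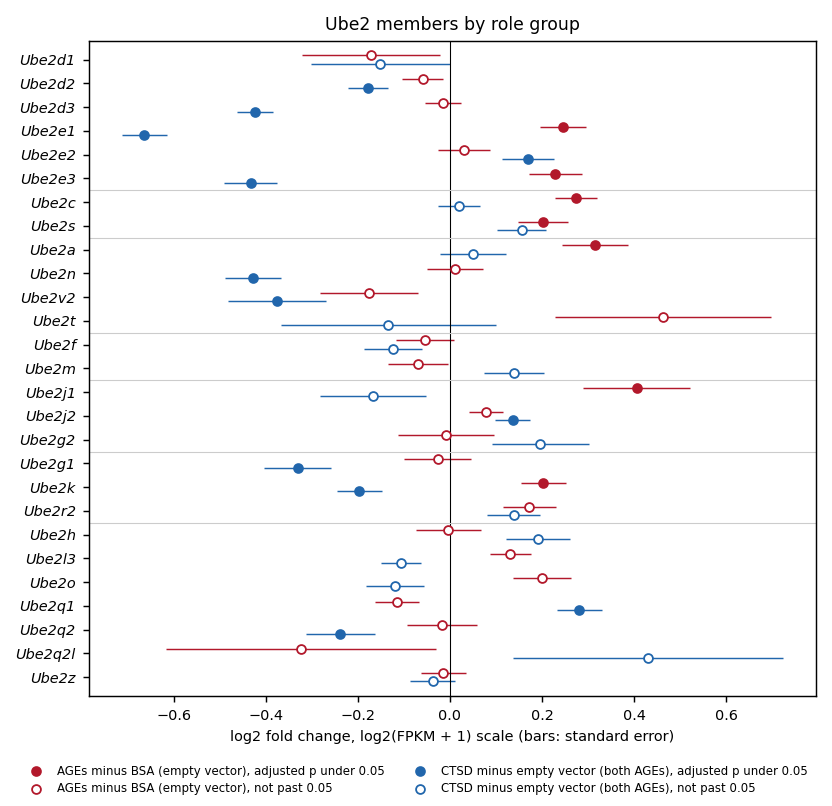
Log2 fold change of 27 Ube2 genes (vertical axis, grouped by role between the grey lines) with AGEs against BSA in red and with CTSD against empty vector under AGEs in blue, on the log2(FPKM + 1) scale with standard errors; filled points passed an adjusted p of 0.05. The 7 filled red points all lie to the right of 0, and 9 of the 12 filled blue points to the left.

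Among the general E2s, the UBE2D and UBE2E families, Ube2d3 was the gene with most RNA and the one that carried the summed level down. It read 2562, 2406 and 2340.5 FPKM in the BSA libraries, 2459, 2378 and 2392 in the AGEs libraries and 1809, 1767 and 1817 in the CTSD libraries. The BSA and AGEs values overlapped, and every CTSD library lay below all 6 others. The log2 fold change with CTSD was -0.42 (SE 0.04, adjusted p = 4.09e-05), a level of 0.746 of that in AGEs cells. Ube2d2, a close relative at 196 ± 8.86 FPKM in AGEs cells, fell less, by 0.18 on the log2 scale (adjusted p = 0.0106). Ube2d1 was low, at 12.5 ± 1.16 FPKM in AGEs cells, and no change was detected in either comparison (adjusted p = 0.486 and 0.497).

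The UBE2E genes moved apart. Ube2e1 read 329, 316 and 293 FPKM in BSA, 383, 371 and 358 in AGEs and 239, 234 and 227 in CTSD libraries. The 3 groups did not overlap at any point, with AGEs highest and CTSD lowest. It rose with AGEs (log2 fold change 0.25, SE 0.05, adjusted p = 0.00873) and showed the largest fall of any Ube2 gene with CTSD (-0.66, SE 0.05, adjusted p = 1.35e-05). Ube2e3 read 226, 236 and 209 FPKM in BSA, 269.5, 261 and 255 in AGEs and 204, 195 and 182 in CTSD libraries. It followed the same course, with values of 0.23 (adjusted p = 0.0241) and -0.43 (adjusted p = 0.000327). Ube2e2, whose gene lies 197587 bases before Ube2e1 on chromosome 15 in the deposited annotation, went the other way, from 295, 284 and 265 FPKM in the AGEs libraries to 339, 305 and 307 with CTSD (0.17, adjusted p = 0.0426). That call was the weakest of the Ube2 set, lost in 10 of 18 alternative fits, the one with median-of-ratios scaling included, while the falls of Ube2e1 and Ube2e3 passed in all 18. The rise of Ube2e3 with AGEs was lost with quantile normalization, without AGEs replicate 1 or 2 or without BSA replicate 1 or 3.

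**Figure D2:**
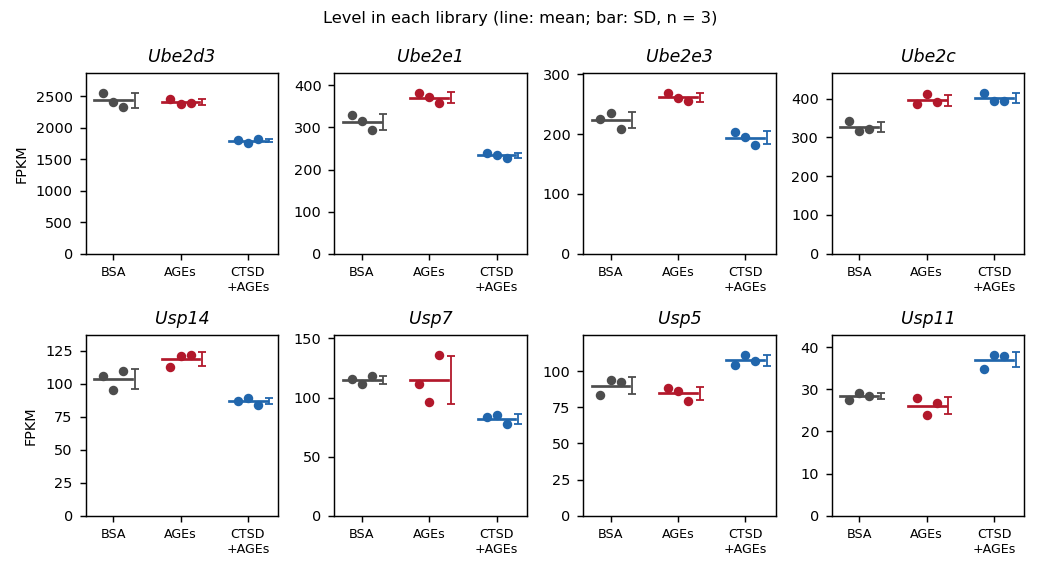
FPKM (vertical axes, from 0) of 4 Ube2 and 4 Usp genes in each library of the BSA, AGEs and CTSD groups, with the group mean as a line and the SD over 3 libraries as a bar. In Ube2d3, Ube2e1, Ube2e3, Usp14 and Usp7 the 3 CTSD points lie below all others, in Usp5 and Usp11 above all others, and in Ube2c the AGEs and CTSD points lie together above BSA.

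The E2s of the anaphase-promoting complex, which marks cell cycle proteins for destruction in mitosis, were higher in both groups that received AGEs. Ube2c, which starts the chains, read 342, 317 and 323 FPKM in BSA, 385, 411 and 391 in AGEs and 416, 393 and 394 in CTSD libraries. All 6 libraries with AGEs lay above the 3 BSA libraries, and the AGEs and CTSD groups overlapped. The rise with AGEs (0.27, SE 0.04, adjusted p = 0.00338) passed in all 18 alternative fits. Ube2s, which extends the chains through lysine 11, read 121, 112 and 119 FPKM in BSA, 138, 142 and 126 in AGEs and 154, 148 and 150.0 in CTSD libraries. The BSA libraries were again the lowest, and its rise with AGEs (0.20, adjusted p = 0.0312) was lost when any 1 of AGEs replicates 1 and 2 or the 3 BSA libraries was left out, and in 7 of 18 alternative fits in all. With CTSD the adjusted p values were 0.792 and 0.0509.

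Among E2s of DNA damage tolerance and lysine 63 chains, Ube2n and its partner Ube2v2, which together build those chains, both fell with CTSD. Ube2n read 282, 277 and 249 FPKM in BSA, 289, 270.1 and 256 in AGEs and 193, 206 and 205 in CTSD libraries. BSA and AGEs overlapped and CTSD lay below both (-0.43, SE 0.06, adjusted p = 0.00049). Ube2v2 went from 43.9 ± 6.87 to 33.4 ± 3.11 FPKM (-0.38, adjusted p = 0.0219), and its call was lost without CTSD replicate 1 or 3 or AGEs replicate 3. Ube2a, which ubiquitinates the sliding clamp of replication and histone H2B, read 52.2, 51.6 and 55.1 FPKM in BSA, 64.4, 72.4 and 61.9 in AGEs and 72.6, 69.1 and 63.8 in CTSD libraries. All 6 libraries with AGEs were above BSA (0.31 with AGEs, adjusted p = 0.0164; lost without AGEs replicate 2 or BSA replicate 1 or 2). Ube2t, the E2 of the Fanconi anaemia pathway, had 4 to 13 fragments in a library and gave no call.

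The NEDD8 enzymes Ube2m and Ube2f, which activate cullin ligases, gave no call, at 224 ± 21.6 and 139 ± 6.65 FPKM in AGEs cells.

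The E2s of endoplasmic reticulum degradation split. Ube2j1, an E2 anchored in that membrane, was higher in all 3 AGEs libraries, at 50.4, 56.9 and 40.99 FPKM against 38.6, 36.3 and 35.4 in the BSA libraries. The change on the log2 scale, 0.41 (SE 0.12, adjusted p = 0.0412), was the largest of the 8 risers and among the least stable, lost in 6 of 9 fits with 1 library left out. Ube2j2 rose from 276, 288 and 286 FPKM in the AGEs libraries to 314, 303 and 317 with CTSD (0.14, adjusted p = 0.0194), lost in 5 of 18 alternative fits, those with median-of-ratios scaling and with the length trend removed among them. For Ube2g2 no change was detected (adjusted p = 0.969 and 0.187).

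Among the E2s of lysine 48 chains and cullin ligases, Ube2k, which builds such chains without a dedicated ligase in vitro, rose with AGEs and fell with CTSD by about the same amount. Its values were 80.1, 76.4 and 77.96 FPKM in BSA, 87.3, 90.8 and 92.1 in AGEs and 75.9, 80.5 and 79.01 in CTSD libraries. The AGEs libraries lay above all others, while BSA and CTSD overlapped (log2 fold changes 0.20 and -0.20, adjusted p = 0.0197 and 0.011; 0.01 between CTSD and BSA, adjusted p = 0.937). Without AGEs replicate 2 or BSA replicate 2 or 3 the rise did not pass. Ube2g1, a partner of cullin ligases, fell with CTSD from 63.4 ± 2.87 to 50.3 ± 3.89 FPKM (-0.33, adjusted p = 0.00641). Ube2r2, another cullin partner, was not called in either step, but its 3 CTSD libraries against BSA gave a log2 fold change of 0.31 (adjusted p = 0.00267).

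Of the remaining E2s, Ube2q1 and Ube2q2, paralogues with a long amino-terminal extension, moved in opposite directions with CTSD. Ube2q1 rose from 169, 169 and 166 FPKM in the AGEs libraries to 216, 203 and 195 in the CTSD libraries (0.28, adjusted p = 0.00158), and Ube2q2 fell from 172 ± 19.5 to 145 ± 7.46 FPKM (-0.24, adjusted p = 0.0358), lost in 6 of 18 alternative fits, those without CTSD replicate 1 or 2 or AGEs replicate 3 among them. Ube2h, Ube2l3, Ube2o, Ube2q2l and Ube2z gave no call in either comparison. Ube2z, the E2 charged by the activating enzyme Uba6, varied least, with 124 ± 6.02, 123 ± 3.36 and 119 ± 2.22 FPKM in the 3 groups.

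**Figure D3:**
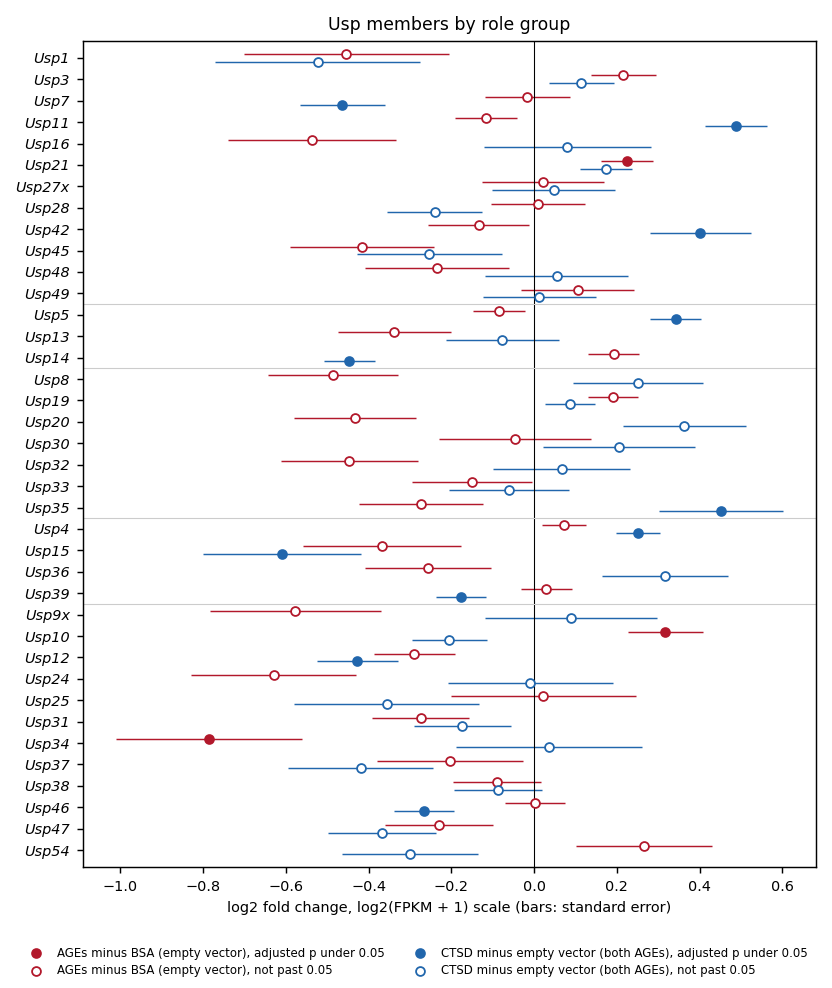
Log2 fold change of the 38 Usp genes (vertical axis, grouped by role between the grey lines), with AGEs against BSA in red and CTSD against empty vector under AGEs in blue, standard errors as bars and filled points past an adjusted p of 0.05. Of the red points 3 are filled, Usp10, Usp21 and Usp34, and the widest bars belong to Usp1 and Usp34.

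The Usp genes of DNA repair and chromatin numbered 12. Usp7, which removes ubiquitin from the p53 ligase Mdm2 among other substrates, read 116, 111 and 118 FPKM in BSA, 112, 96.3 and 136 in AGEs and 83.8, 85.2 and 77.4 in CTSD libraries. Its AGEs libraries were spread widely, the third being highest, and the CTSD libraries lay below all of them (-0.46, SE 0.10, adjusted p = 0.00638). Usp11, a deubiquitinase of double-strand break repair, read 27.5, 29.1 and 28.5 in BSA, 27.8, 23.8 and 26.8 in AGEs and 34.9, 38.2 and 37.8 in CTSD libraries. It was the Usp gene with the largest rise with CTSD (0.49, SE 0.08, adjusted p = 0.000837), with no overlap between CTSD and the other libraries. Usp21, which acts on histone H2A, rose from 79.7, 86.8 and 91.3 FPKM in the BSA libraries to 97.03, 102 and 103 with AGEs (0.22, adjusted p = 0.0394; lost in 6 of 9 fits with 1 library left out). Usp42, which acts on p53, rose from 4.32, 5.202 and 5.34 FPKM in the AGEs libraries to 6.78, 7.19 and 6.57 with CTSD (0.40, adjusted p = 0.0298), a call lost in 8 of 18 alternative fits, the one with median-of-ratios scaling included.

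Usp1, which with its cofactor Wdr48 (UAF1) deubiquitinates Fancd2 and the replication clamp, had a negative log2 fold change in each step and passed in neither (-0.45 with AGEs and -0.52 with CTSD). It read 21.6, 18.4 and 25.1 FPKM in BSA, 12.2, 11.5 and 25.8 in AGEs and 9.39, 10.7 and 11.4 in CTSD libraries. The third AGEs library had more than the BSA mean while the other 2 AGEs libraries were near the CTSD level, and all CTSD libraries were below all others. CTSD against BSA gave -0.98 on the log2 scale (SE 0.25, adjusted p = 0.0132), a level of 0.483 of that in BSA cells. Usp12 and Usp46, near-identical paralogues that also bind Wdr48, both fell with CTSD. Usp12 read 27.1, 25.9 and 21.7 FPKM in BSA, 19.7, 21.4 and 19.3 in AGEs and 15.8, 13.9 and 14.6 in CTSD libraries. Its 3 groups did not overlap, in descending order (-0.29, adjusted p = 0.0736 with AGEs; -0.43, adjusted p = 0.00775 with CTSD). Usp46 went from 21.6 ± 1.03 to 17.8 ± 0.581 FPKM (-0.27, adjusted p = 0.0183; lost without CTSD replicate 2 or AGEs replicate 1). How reads of near-identical copies were counted is not given in the sources used here. Wdr48 itself had a log2 fold change of -0.17 with CTSD (adjusted p = 0.0631).

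The genes that handle free ubiquitin and the proteasome moved in opposite directions with CTSD. Usp14, which sits on the proteasome and trims chains before degradation, read 106, 95.5 and 109.9 FPKM in BSA, 112, 121 and 122 in AGEs and 87.2, 88.99 and 84.2 in CTSD libraries. The CTSD libraries were the lowest and the AGEs libraries the highest, with no overlap between any groups (-0.45, SE 0.06, adjusted p = 0.000409). Its value with AGEs did not pass (log2 fold change 0.19, adjusted p = 0.06), although it passed with median-of-ratios scaling, at 0.26 (adjusted p = 0.019). Usp5, which takes apart unanchored ubiquitin chains, read 83.2, 93.6 and 92.8 FPKM in BSA, 88.1, 86.4 and 79.5 in AGEs and 104, 111 and 107 in CTSD libraries. All CTSD libraries lay above the rest (0.34, SE 0.06, adjusted p = 0.00212). Usp13, a relative of Usp5, was at 3.24 ± 0.474 FPKM with CTSD and gave no call in either step.

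Of the 4 Usp genes of RNA processing and the nucleolus, Usp4 and Usp15, paralogues that with Usp11 share one domain plan, went apart with CTSD. Usp4 rose from 70.1, 66.9 and 69.2 FPKM in the AGEs libraries to 78.9, 84.97 and 82.2 in the CTSD libraries (0.25, SE 0.05, adjusted p = 0.00461). Usp15 read 12.3, 11.2 and 17.8 in BSA, 8.76, 8.87 and 13.7 in AGEs and 6.16, 6.66 and 6.29 in CTSD libraries. The third library was the highest in both empty-vector groups, and the CTSD libraries were below all of them (-0.61, SE 0.19, adjusted p = 0.0343; lost with no filter, without any 1 of the CTSD libraries or without AGEs replicate 3). Usp39, a spliceosome protein that lacks catalytic residues of the family, fell from 118, 121 and 113 FPKM in the AGEs libraries to 100.5, 111 and 99.8 with CTSD (-0.18, adjusted p = 0.0499), at the edge of the threshold. That call was lost in 10 of 18 alternative fits, the one that blocks on replicate number included (adjusted p = 0.0564). Its gene overlaps LOC691113, at 3.83 FPKM. For Usp36, a deubiquitinase of the nucleolus, no change was detected (adjusted p = 0.293 and 0.147).

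Usp genes of membranes and trafficking gave 1 call of 7. Usp35, described at mitochondria, rose from 4.84, 3.74 and 4.95 FPKM in the AGEs libraries to 5.82, 6.798 and 6.93 with CTSD (0.45, adjusted p = 0.0422), lost in 10 of 18 alternative fits. Usp8, which acts on receptors at endosomes, read 13.7, 10.5 and 13.5 in BSA, 8.19, 7.01 and 11.1 in AGEs and 10.7, 10.1 and 10.5 in CTSD libraries. It did not pass with AGEs (-0.49, adjusted p = 0.0627), but did when blocked on replicate number (adjusted p = 0.041) and without AGEs replicate 3 (-0.65, adjusted p = 0.00997). Usp20, Usp33, Usp30 and Usp32 gave no call in either step, nor did Usp19, which is anchored in the endoplasmic reticulum. Usp19 stood at 48.4 ± 2.69, 55.3 ± 2.33 and 58.8 ± 1.29 FPKM in the 3 groups. Its value with AGEs (0.19, adjusted p = 0.0585) passed in several alternative fits, with median-of-ratios scaling among them (adjusted p = 0.0227). Between CTSD and BSA cells Usp19 was called higher (0.28, adjusted p = 0.00602).

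In the last group of 12 Usp genes, Usp10 and Usp34 were called with AGEs. Usp10, which binds the stress granule protein G3bp1, rose from 21.2, 19.5 and 21.3 FPKM in the BSA libraries to 27.8, 23.1 and 27.3 with AGEs (0.32, adjusted p = 0.0421). Blocking on replicate number gave an adjusted p of 0.0581, and the call was lost in 10 of 18 alternative fits. Usp34, a very large deubiquitinase that acts on axin in Wnt signalling, read 7.98, 7.003 and 10.5 FPKM in BSA, 3.56, 3.43 and 6.99 in AGEs and 4.297, 5.001 and 4.46 in CTSD libraries. The third AGEs library almost reached the lowest BSA library, and the other 2 lay below every CTSD library. The fall with AGEs (-0.79, SE 0.23, adjusted p = 0.0421) was lost in 12 of 18 alternative fits. Usp9x, a deubiquitinase of many substrates in development and trafficking, read 29.4, 25.3 and 35.8 in BSA, 15.7, 16.5 and 29.4 in AGEs and 19.9, 22.97 and 20.4 in CTSD libraries. Usp24, a very large deubiquitinase, read 17.7, 14.3 and 17.4 in BSA, 7.97, 8.61 and 15.5 in AGEs and 9.63, 10.3 and 10.6 in CTSD libraries. In both the third AGEs library stood with BSA and the other 2 below CTSD, and neither passed with AGEs (adjusted p = 0.0889 and 0.0592). Blocked on replicate number, Usp24 passed (adjusted p = 0.0437). Usp47, a deubiquitinase of base excision repair, gave -0.37 with CTSD (adjusted p = 0.0552), and passed in several alternative fits, with voom on recovered fragments among them (adjusted p = 0.0177).

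**Figure D4:**
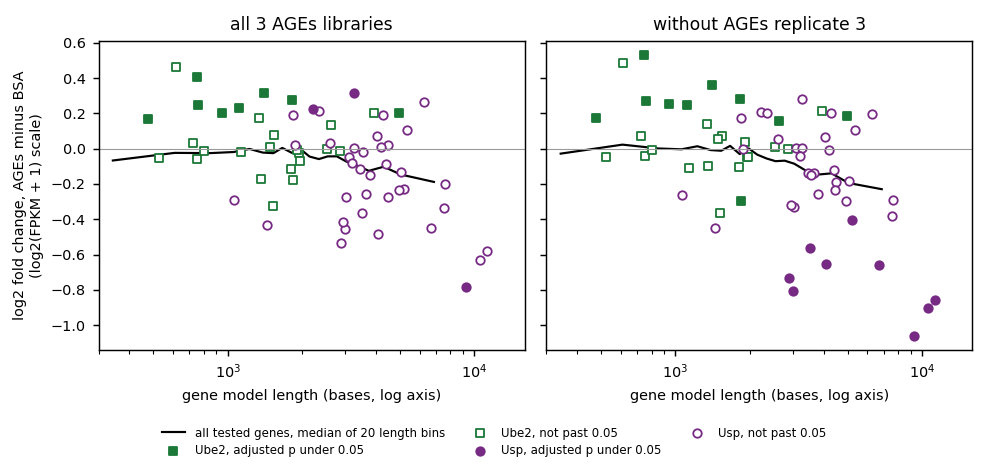
Log2 fold change with AGEs against BSA (vertical axis) by length of the gene model (horizontal log axis) for Ube2 genes (green squares) and Usp genes (purple circles), filled where the adjusted p was under 0.05, with the median of all 8532 tested genes in 20 length bins as a black line; the left panel uses all 3 AGEs libraries and the right panel leaves out the third. Without that library the long Usp genes lie lower. Of Usp genes of any length 9 are filled in place of 3 in the left panel, all 9 below 0.

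The count of Usp genes called with AGEs moved with the third AGEs library and with gene length. Against the BSA mean, the median Usp gene was at -0.15, -0.21 and -0.02 log2 units in AGEs libraries 1, 2 and 3, and the 18 Usp genes with gene models of at least 4000 bases at -0.29, -0.25 and -0.02. All 1286 tested genes of that length went the same way, at -0.16, -0.20 and -0.05, so long genes outside the Usp family showed it too. Without AGEs replicate 3, 9 Usp genes fell and 0 rose: Usp1, Usp8, Usp9x, Usp15, Usp16, Usp24, Usp32, Usp34 and Usp47. Gene models of at least 4000 bases made up 6 of them, and shorter ones 3. Over all genes the same fit called 533 higher and 1072 lower. Of these 9, Usp16 shares a stretch of the genome with Cct8, a gene at 188 FPKM, and whether the counting used strand is not given. With the trend of values on gene length removed in each library, 6 Usp genes rose (Usp3, Usp4, Usp10, Usp14, Usp19 and Usp21) and 0 fell, and over all genes the balance turned as well, to 726 higher and 507 lower. Across the 38 Usp genes the log2 fold change with AGEs had a Pearson correlation of -0.34 with log10 length. Across all tested genes it was -0.12. By rank (Spearman) the 2 values lay closer together, at -0.24 and -0.16. Genes share the libraries, so these are descriptions. What part gene length has in the Usp values was not tested. With CTSD against AGEs the Pearson correlation was 0.01 across Usp genes. With CTSD against BSA it was -0.23 across Usp genes and -0.10 across all tested genes.

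Set directly against BSA cells, CTSD cells with AGEs differed in 16 of 28 Ube2 genes, 8 higher and 8 lower, and in 19 of 38 Usp genes, 6 higher and 13 lower, where 32.6% of all genes passed, 16.3% higher and 16.3% lower. The median log2 fold change was 0.08 for Ube2, -0.22 for Usp and 0.00 for all tested genes. All CTSD libraries lay above all BSA libraries in 12 Ube2 and 7 Usp genes (24.0% of all genes) and below in 9 and 17 (24.8%). Without BSA replicate 3 the Usp calls were 6 higher and 7 lower, and the calls over all genes 1127 higher and 1070 lower. With the length trend removed the Usp calls were 7 higher and 11 lower, and the median Usp value was -0.15. Over all genes that fit called 1435 higher and 1361 lower. This comparison shares its libraries with both others, and the AGEs libraries enter its estimate of the spread. The 3 CTSD libraries agreed closely, with the median Usp gene at -0.20, -0.20 and -0.23 log2 units from the BSA mean. The lowest Usp genes were Usp1 (-0.98), Usp15 (-0.98, adjusted p = 0.00361), Usp34 (-0.75, adjusted p = 0.0277) and Usp12 (-0.72, adjusted p = 0.000534). Usp45, a repair deubiquitinase with 5 to 20 fragments in a library, went from 1.22 ± 0.257 to 0.393 ± 0.0533 FPKM (-0.67, adjusted p = 0.0151). On the higher side stood Usp21 (0.40, adjusted p = 0.00118), Usp11 (0.37, adjusted p = 0.0045), Usp3, an H2A deubiquitinase (0.33, adjusted p = 0.00947), and Usp4, Usp19 and Usp5. In the summed level the Ube2 genes stood at 6834 ± 166 FPKM in BSA, 7144 ± 94.8 in AGEs and 6369 ± 81.8 in CTSD cells (n = 3 each), and without Ube2d3 at 4398 ± 63.5, 4734 ± 67.9 and 4571 ± 71.1. The Usp sum was 1036 ± 35.9, 1015 ± 63.1 and 974 ± 25.2 FPKM.

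Promoters are shown for 2 genes that fell and 2 that rose with CTSD in all 18 alternative fits, so that the sequences of genes that moved together can be compared. Each is 300 bases from RefSeq (build GRCr8), 250 before and 50 after the annotated start, 5′ to 3′ on the gene's strand, and capitals mark matches to any of 7 motifs on either strand: GGGCGG (SP1), CCAAT (NFY), CCGGAAG (ETS), the NRF1 motif (GCGC, any base, TGCGC), TGACGTCA (CRE), CACGTG (E-box) and GAANNTTC (heat shock). Neighbouring capitals can be overlapping matches. The 2 that fell are Ube2e3 at chr3:84193996-84194295 (+ strand) and Ube2d3 at chr2:226542944-226543243 (+ strand), and the 2 that rose are Usp5 at chr4:159320907-159321206 (- strand) and Usp11 at chrX:4042987-4043286 (- strand).
Ube2e3: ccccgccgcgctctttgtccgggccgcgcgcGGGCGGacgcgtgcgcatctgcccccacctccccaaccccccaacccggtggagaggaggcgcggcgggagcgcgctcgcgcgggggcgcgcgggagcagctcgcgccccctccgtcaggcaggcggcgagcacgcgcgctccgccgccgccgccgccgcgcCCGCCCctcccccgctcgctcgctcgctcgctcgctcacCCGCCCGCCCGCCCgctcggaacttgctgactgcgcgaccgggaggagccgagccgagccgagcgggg
Ube2d3: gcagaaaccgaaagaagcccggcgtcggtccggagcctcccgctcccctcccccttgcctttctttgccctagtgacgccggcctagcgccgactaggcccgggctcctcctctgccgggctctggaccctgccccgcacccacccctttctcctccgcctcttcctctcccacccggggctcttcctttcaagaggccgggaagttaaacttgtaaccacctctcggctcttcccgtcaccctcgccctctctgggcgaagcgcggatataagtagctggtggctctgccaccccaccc
Usp5: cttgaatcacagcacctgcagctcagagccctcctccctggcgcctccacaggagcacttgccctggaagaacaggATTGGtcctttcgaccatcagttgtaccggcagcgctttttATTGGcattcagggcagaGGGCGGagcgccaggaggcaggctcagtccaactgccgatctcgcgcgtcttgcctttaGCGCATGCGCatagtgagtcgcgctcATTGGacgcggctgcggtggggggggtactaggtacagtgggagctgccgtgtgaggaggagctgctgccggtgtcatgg
Usp11: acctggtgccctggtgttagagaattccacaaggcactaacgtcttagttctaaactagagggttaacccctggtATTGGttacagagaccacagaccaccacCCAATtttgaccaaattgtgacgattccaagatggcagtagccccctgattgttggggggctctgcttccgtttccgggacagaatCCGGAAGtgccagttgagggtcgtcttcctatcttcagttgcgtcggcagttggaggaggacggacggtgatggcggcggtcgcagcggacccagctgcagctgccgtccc

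Ube2d3 held none of these motifs in the window, Ube2e3 held 5 matches of GGGCGG, Usp5 held 3 of CCAAT and 1 each of GGGCGG and the NRF1 motif, and Usp11 held 2 of CCAAT and 1 of CCGGAAG. Of the 66 genes 53 had a single promoter in the table, matched by symbol and on the same chromosome as deposited. GGGCGG was found in 15 of 21 Ube2 promoters (71.4%) and 24 of 32 Usp promoters (75.0%), against 34.9% of 27457 promoters of all genes, silent ones included. CCGGAAG was in 0 of 11 promoters of members lower with CTSD, 3 of 6 of members higher and 11 of 36 of the others, with 9.22% over all genes. The NRF1 motif was in 4 of 11, 1 of 6 and 5 of 36, with 4.71% over all genes. CACGTG was in 0 of 11, 2 of 6 and 2 of 36, with 6.65% over all genes. CCAAT was in 2 of 11, 2 of 6 and 9 of 36 (37.7% over all genes), GAANNTTC in 0, 0 and 2 (8.34%), and TGACGTCA in none of these 53 promoters (1.91%). These are matches of letters in small sets and were not tested.

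The other genes of the pathway were counted in the same fit, where 6.05% of all genes were higher and 8.92% lower with AGEs, and 18.6% higher and 12.0% lower with CTSD. The lists are short, so a count of 1 to 4 genes can lie near those shares, and nothing is read from the counts alone. Of 8 activating enzyme genes 0 passed with AGEs, and with CTSD 1 rose and 1 fell: Uba1, the main E1 of ubiquitin, at 0.22 (adjusted p = 0.00349), and Nae1, a subunit of the NEDD8 E1, from 50.1 ± 5.63 to 26.8 ± 1.11 FPKM (-0.87, adjusted p = 6.31e-05). Of 5 ubiquitin-like modifiers 0 passed with AGEs, and 2 rose and 2 fell with CTSD. The largest change there was that of Urm1 (0.50, adjusted p = 0.0124). Of 6 E2-type genes with other names 1 rose and 1 fell with AGEs, and 1 rose with CTSD. Birc6, a giant E2 that guards against cell death, went from 5.42 ± 0.415 to 2.77 ± 0.762 FPKM with AGEs (-0.79, adjusted p = 0.00883), Cdc34, an E2 of cullin ligases, rose with AGEs (0.28, adjusted p = 0.00165), and the riser with CTSD was Tsg101, an endosomal sorting protein of the UEV kind (0.36, adjusted p = 0.000347).

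Among ligases, 14 genes of cullin scaffolds and their RING partners gave 0 calls with AGEs, and 3 rose and 3 fell with CTSD. Cul1, the scaffold of SCF ligases, fell most (-0.66, adjusted p = 0.000176), and its adaptor Skp1 fell as well (-0.46, adjusted p = 0.000176). Of 14 genes of the anaphase-promoting complex and its activators 1 rose and 1 fell with AGEs, where the gene that fell was Anapc1 (-0.35, adjusted p = 0.00467), and 1 rose and 3 fell with CTSD, where Anapc4 changed most (-0.67, adjusted p = 0.000214). The riser in both was Cdc20, which Ube2c and Ube2s serve through the complex (0.13 and 0.32). Of 29 HECT and RBR ligases 1 rose and 3 fell with AGEs, led by Herc2 (-0.77, adjusted p = 0.00122), and 8 rose and 1 fell with CTSD, led by Ube3b (0.49, adjusted p = 0.00725). Huwe1, a very large ligase, fell from 133 ± 4.95 to 86.3 ± 5.91 FPKM with AGEs and rose to 111 ± 6.31 with CTSD. Of 15 genes of endoplasmic reticulum degradation and p97 partners 2 rose and 4 fell with AGEs and 4 rose and 4 fell with CTSD, with Herpud1 at -0.56 and 0.53.

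Deubiquitinases of other families gave 2 higher and 3 lower of 28 with AGEs and 6 higher and 2 lower with CTSD, where 6.05% and 8.92% of all genes were higher and lower with AGEs and 18.6% and 12.0% with CTSD. Mpnd, of the JAMM kind, changed most in both, at -1.07 (adjusted p = 0.00516) and 1.11 (adjusted p = 0.00155). Psmd14, the deubiquitinase of the proteasome lid, read 315, 323 and 296 FPKM in BSA, 389, 364 and 365 in AGEs and 232, 233 and 254 in CTSD libraries. Its CTSD libraries were the lowest and its AGEs libraries the highest, the order also seen in Usp14 (0.26, adjusted p = 0.00843 with AGEs; -0.64, adjusted p = 2.15e-05 with CTSD). Of 10 cofactors of Usp enzymes 1 fell with AGEs, Atxn7l3 of the histone deubiquitinase module (-0.43, adjusted p = 0.000316), and 2 rose and 4 fell with CTSD. Gmps, an enzyme of GMP synthesis that binds Usp7, fell most (-0.61, adjusted p = 3.68e-05), and G3bp1, the partner of Usp10, fell by 0.21 (adjusted p = 0.0198).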

How the data were processed

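The authors deposited 1 table of FPKM values for 9 libraries, per the file headers, with gene model length, coordinates and rat Ensembl IDs; no aligner or annotation release is named there or in the labels. The submitters' processing notes name the build mm10, a mouse build, while the IDs are of rat, so no build is given for deposited coordinates. Fragment totals were estimated: for each library the total was sought that made most values of FPKM times length whole. With those totals 99.26% to 99.5% of values under 200 fragments were whole within 0.1, a share that the search itself raises. By these totals 3 fragments in a gene of 1 kb make 0.562 to 0.668 FPKM, which is counting error only.

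Genes with an FPKM of at least 1 in at least 3 of 9 libraries (8532) were fitted with limma 3.58.1 (R 4.3.3) on log2(FPKM + 1) with 1 mean per group, a mean-variance trend and two-sided moderated tests, and p-values were Benjamini-Hochberg adjusted over all these genes with a threshold of 0.05. Fold changes on this scale understate those of low genes. The steps were tested on simulated data with 200 changed genes. Members, lists, motifs and role groups were chosen with earlier results of these data known, and the role groups after the values were seen. Called members are named, save 1 that, with some genes of the lists, is counted but not reported here, up to 5 rises and 5 falls per prefix and comparison with every library's value; other genes named from the lists are those with the largest changes and partners of members, the latter chosen after their values were seen. Alternatives were a pseudocount of 0.1, a mean of at least 5 FPKM or no filter, median-of-ratios and quantile scaling, a replicate block, 2 groups alone, voom on recovered fragments, removal of the length trend, and leaving out each library. Deviations from the group mean in libraries of the same replicate number correlated weakly between BSA and AGEs (0.14, 0.14 and 0.15). For CTSD against AGEs the correlations were 0.08, -0.03 and 0.07. The labels name no shared culture or batch, so whether equal numbers mark pairs is not known. The block is therefore given beside the main fit only.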

Additional observations from a re-analysis of the deposited data

How the results depend on the processing

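No call on a named gene turned its direction in any of the 18 alternative fits. The calls of Ube2e1 and Ube2c with AGEs, and of 8 Ube2 and 6 Usp genes with CTSD, passed in all 18. Of 38 Usp genes 3 were called with AGEs, where 1277 of 8532 over all genes were. That Usp count was 0 with no filter (1043 of 12002 over all genes) and with the 2 groups alone (928). It was 6 of 28 with a mean of at least 5 FPKM (1321 of 6008 over all genes). It was 6 of 38 with median-of-ratios scaling (1289) and with the length trend removed (1233), and 10 with voom on recovered fragments (1546). For CTSD against AGEs the Usp count (11, with 2617 over all genes) was 7 with no filter (2366 of 12002). The cause was not tested. With 1 library left out, the counts with AGEs ranged from 760 to 1605 over all genes, 3 to 10 for Ube2 and 0 to 9 for Usp. With CTSD against AGEs they ranged from 2095 to 2524, 8 to 14 and 7 to 12, and with CTSD against BSA from 2108 to 3090, 13 to 16 and 13 to 21. The log2 fold change of Ctsd ranged from 0.02 to 0.17 with AGEs, 3.72 to 3.79 with CTSD against AGEs and 3.77 to 3.92 against BSA. The replicate block rests on a shared number alone. With it, 1213 genes passed for AGEs against BSA, 8 Ube2 genes higher and 1 Usp gene higher and 3 lower. Usp10 was lost, and Usp24 (adjusted p = 0.0437) and Usp8 were gained. For CTSD against AGEs the block gave 2581 calls in all, 13 for Ube2 and 12 for Usp, and for CTSD against BSA 2773. Depth limits the low genes, such as Ube2t and Usp45, most.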
